A study of Mus musculus with 9 samples.

Results

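The costimulatory and checkpoint ligand genes described here are 9 genes, which are Cd80, Cd86, Cd274, Pdcd1lg2, Icosl, Cd83, Cd47, Slamf7 and Sirpa, chosen by name from the 54532 genes of the deposited table. They were followed in RAW264.7, a mouse macrophage line that the labels give as wild type and as taken from ascites, in 3 groups of 3 libraries each. The control cells were untreated, the LPS cells were given lipopolysaccharide (a component of the Gram-negative outer membrane) at 1 μg/ml for 6 h, and the LPS + G-CDs cells were given the same LPS dose for 6 h together with 400 μg/ml of G-CDs, carbon dots made from Glycyrrhiza. No library of cells given G-CDs without LPS was among the samples, the cells were of 1 line, and G-CDs are named in the sample titles while the treatment field of those samples lists LPS alone. Neither the labels nor the methods say that the 3 libraries of a group came from separate cultures, so the p-values measure the spread between these libraries.

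A T cell that meets its antigen on a macrophage reads further signals from ligands on that cell. CD80 and CD86 bind the activating receptor CD28 and the inhibitory receptor CTLA-4, ICOSL binds ICOS, and PD-L1 (the product of Cd274) and PD-L2 (the product of Pdcd1lg2) engage the inhibitory receptor PD-1. CD83 stabilizes CD86 and major histocompatibility complex class II on the surface of antigen-presenting cells. CD47 binds SIRPα, the inhibitory receptor of phagocytes encoded by Sirpa, and SLAMF7 is a receptor of the SLAM family that binds itself on neighbouring cells.

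Expression was deposited as FPKM, which is reads per gene divided by gene length and library size. The libraries held 14752400 to 17312255 reads on genes, and the library size behind the FPKM values was 1.11 to 1.14 times those reads in the control libraries, 0.929 to 0.936 times in the LPS libraries and 0.88 to 0.98 times in the LPS + G-CDs libraries. Pearson's r across genes between libraries of a group was 0.94 to 0.969 for control, 0.987 to 0.988 for LPS and 0.935 to 0.975 for LPS + G-CDs. Of 12 macrophage markers, 11 had a mean FPKM above 1 in each group and Mertk was listed at 0, while 0 of 10 dendritic cell markers, 0 of 5 B cell markers and 0 of 7 stromal and epithelial markers did. The summed FPKM of the dendritic list was 1.44 to 1.62 in control, 2.60 to 3.25 in LPS and 2.21 to 3.25 in LPS + G-CDs libraries, and its part in the values below was not tested. Of 12 T cell markers and receptors 1 was over 1 FPKM, Lck, and the summed FPKM of that list was 1.18 to 1.94 in control, 3.32 to 3.91 in LPS and 4.59 to 6.99 in LPS + G-CDs libraries, whose part was not tested either. The LPS response genes Tnf, Il6, Il1b, Nos2, Ptgs2 and Cxcl10 all rose with LPS (6 of 6, against 15.8% of all tested genes called higher), of which Il6, Il1b and Cxcl10 were under 1 FPKM in every control library and were tested through the treated groups alone. Hmox1, Gclm and Srxn1, 3 of the 4 tested targets of the antioxidant regulator Nrf2, rose when G-CDs were added, against 0.492% of all tested genes called. Of the 6 LPS response genes, Nos2, which encodes the inducible nitric oxide synthase, was the only 1 called with G-CDs (105 to 49.5 FPKM, -1.10 against LPS, adjusted p = 0.0465, limma), and this call held in 5 of 20 alternatives, with the change between -1.27 and -0.94 in all 20.

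On GRCm38, Cd80 (ENSMUSG00000075122, chr16:38455561-38496335, plus strand), Cd86 (ENSMUSG00000022901, chr16:36603869-36666081, minus strand) and Cd47 (ENSMUSG00000055447, chr16:49800533-49915010, plus strand) lay on chromosome 16. Cd274 (ENSMUSG00000016496, chr19:29367455-29388095) and Pdcd1lg2 (ENSMUSG00000016498, chr19:29410919-29471157) lay close together on the plus strand of chromosome 19. Icosl (ENSMUSG00000000732) lay at chr10:78069302-78083913, Cd83 (ENSMUSG00000015396) at chr13:43784775-43803132 and Sirpa (ENSMUSG00000037902) at chr2:129592835-129632228, all on the plus strand, and Slamf7 (ENSMUSG00000038179) at chr1:171632403-171653035 on the minus strand. Promoter windows of 250 bases before the RefSeq start (GRCm38.p6) were held for 6 of the 9 genes, and Cd83, Cd86 and Sirpa were not among them. Windows are shown for Cd80 and Icosl, the costimulatory ligand genes whose 3 groups did not overlap, for both PD-1 ligands, which differed widely in level, and for Slamf7. Each runs 5′ to 3′ on the gene's strand and ends at the base before the start, and capitals mark matches to a motif searched on both strands.

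Cd80: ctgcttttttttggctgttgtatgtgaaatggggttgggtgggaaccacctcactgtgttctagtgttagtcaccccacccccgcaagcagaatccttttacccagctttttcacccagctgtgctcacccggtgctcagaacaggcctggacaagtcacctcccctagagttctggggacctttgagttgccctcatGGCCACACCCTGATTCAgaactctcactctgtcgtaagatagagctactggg
Icosl: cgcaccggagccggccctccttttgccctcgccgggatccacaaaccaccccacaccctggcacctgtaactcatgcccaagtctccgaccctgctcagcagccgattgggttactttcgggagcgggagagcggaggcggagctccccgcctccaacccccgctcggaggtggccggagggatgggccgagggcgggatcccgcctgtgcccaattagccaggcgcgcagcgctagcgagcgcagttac
Cd274: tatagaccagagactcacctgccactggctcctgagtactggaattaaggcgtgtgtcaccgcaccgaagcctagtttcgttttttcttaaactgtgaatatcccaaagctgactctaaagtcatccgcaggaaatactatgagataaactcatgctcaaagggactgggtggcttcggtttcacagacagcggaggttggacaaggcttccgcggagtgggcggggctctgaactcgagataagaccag
Pdcd1lg2: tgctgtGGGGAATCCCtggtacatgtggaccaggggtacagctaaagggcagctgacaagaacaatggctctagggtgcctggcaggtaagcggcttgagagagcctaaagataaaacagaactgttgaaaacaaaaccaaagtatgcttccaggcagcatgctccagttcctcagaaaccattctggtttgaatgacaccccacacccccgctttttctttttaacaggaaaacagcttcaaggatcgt
Slamf7: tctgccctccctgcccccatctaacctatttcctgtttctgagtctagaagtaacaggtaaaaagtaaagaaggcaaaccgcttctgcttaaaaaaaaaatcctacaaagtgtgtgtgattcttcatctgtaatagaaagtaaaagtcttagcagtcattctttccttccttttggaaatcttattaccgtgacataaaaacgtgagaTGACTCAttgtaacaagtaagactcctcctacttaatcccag

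The windows lie at chr16:38458683-38458932 (Cd80), chr10:78069118-78069367 (Icosl), chr19:29367188-29367437 (Cd274), chr19:29410669-29410918 (Pdcd1lg2) and chr1:171649000-171649249 (Slamf7, minus strand). Those of Cd80 and Slamf7, and that of Cd47 (chr16:49855404-49855653), lie inside the gene spans given above. The Icosl window crosses the start of its span. In these genes the RefSeq start is therefore not the start of the span. The κB motif GGG NN T NN CC (written with spaces, N for any base), the site of NF-κB, was present in 15.9% of all 32841 windows. Among these genes it was matched on the reverse strand in Cd80 from base -52 to -43 (GGCCACACCC) and in Pdcd1lg2 from base -244 to -235 (GGGGAATCCC). The AP-1 motif TGANTCA was present in 6.75% of all windows and was matched in Cd80 from base -42 to -36 (TGATTCA), directly after the κB match, and in Slamf7 from base -42 to -36 (TGACTCA). The interferon-stimulated response element GAAA NN GAAA (2.98% of windows), the gamma-activated site TTCNNNGAA (7.02%) and the antioxidant response element TGACNNNGC (10.2%) had no match in the 6 windows searched. None of the 5 motifs was matched in the windows of Icosl, Cd274 and Cd47. Cd47 had 2 windows, of which only the first was searched. Cd80, Pdcd1lg2 and Slamf7 therefore hold letters that Icosl and Cd274 lack in this stretch, which says nothing about binding.

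In control cells the ligand genes spanned a wide range of levels. Sirpa led at a mean of 34.2 FPKM, followed by Cd47 (12.0 FPKM), Cd83 (5.10 FPKM), Icosl (1.88 FPKM), Cd80 (0.866 FPKM) and Cd274 (0.579 FPKM). Cd86, Slamf7 and Pdcd1lg2 came last, and among neighbours in this order Cd80 and Cd274 overlapped, as did Slamf7 and Pdcd1lg2. With LPS the order became Cd83, Cd47, Icosl, Sirpa, Cd274, Cd80, Cd86, Slamf7 and Pdcd1lg2, with no overlap between neighbours. The lowest Slamf7 value was 0.0902 FPKM (6 reads) and the highest Pdcd1lg2 value was 0.0881 FPKM (2 reads). These reads are too few to order those genes. With LPS + G-CDs the first 7 kept that order, again with no overlap, and Slamf7 and Pdcd1lg2 overlapped at the bottom.

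**Figure D1:**
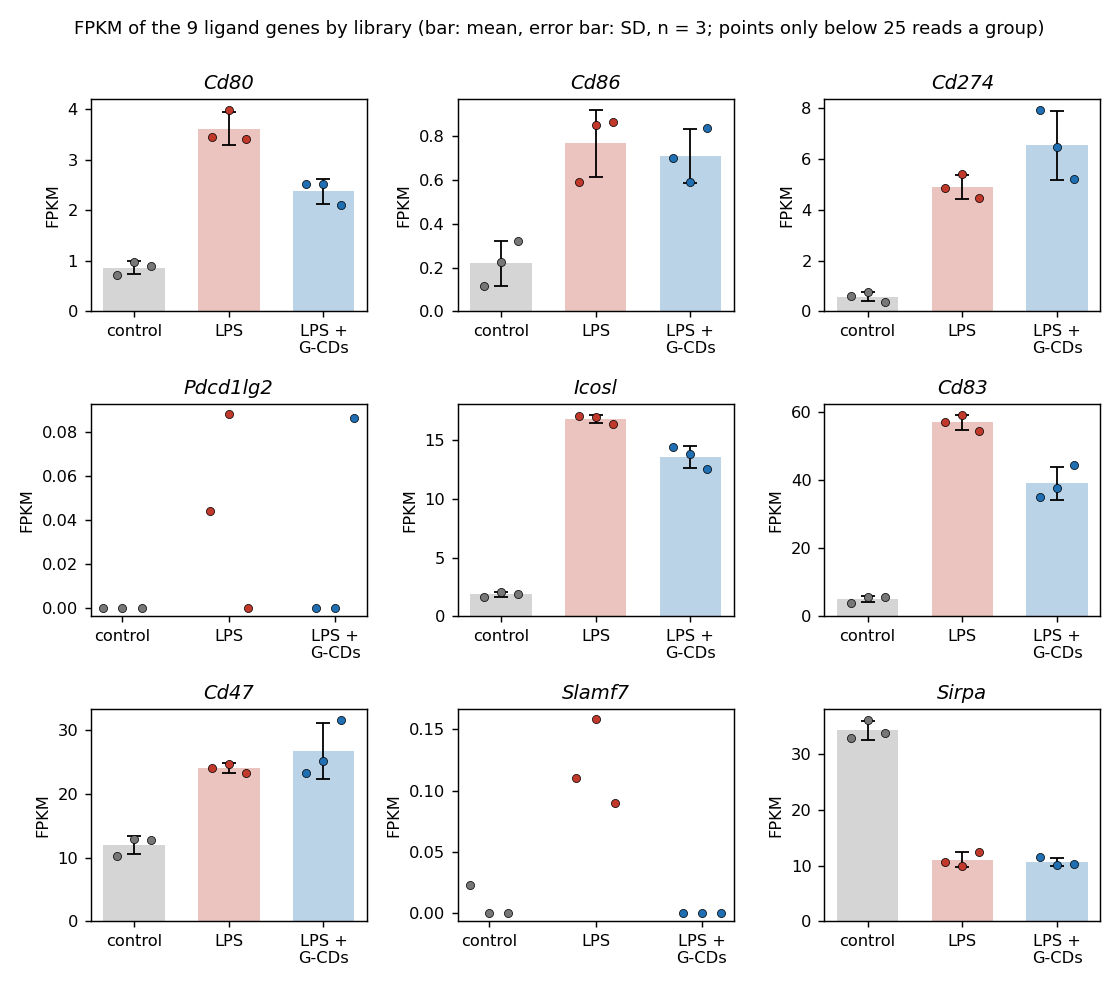
FPKM (vertical axis, linear, separate scale per gene) of the 9 ligand genes in each of the 9 libraries, with points for libraries, bars for group means and error bars for the SD (n = 3), and points alone for Slamf7 and Pdcd1lg2. Cd83, Icosl, Cd274, Cd80 and Cd47 sit higher in both LPS-treated groups than in control, Sirpa sits lower, and Cd83, Icosl and Cd80 lie lower in the LPS + G-CDs libraries than in the LPS libraries.

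The question of the first comparison is how LPS changed these genes in the macrophages. A gene was tested where 3 or more of the 9 libraries reached 1 FPKM, which kept 6 of the 9 ligand genes and 11585 genes in all, and changes are differences of log2(FPKM + 1) from limma with Benjamini-Hochberg adjustment over all tested genes. On this scale the change of a low gene is understated. Of the tested ligand genes, 5 rose and 1 fell with LPS at an adjusted p under 0.05, against a background of 31.3% of all tested genes called (15.8% higher, 15.6% lower). In 6 of 6 the LPS and control libraries did not overlap, which held for 52.5% of all tested genes. Cd80 and Cd274 were under 1 FPKM in every control library and passed the filter through the LPS-treated groups, so the count of 6 is a description and not support for a shared response. In these bulk libraries, more cells expressing a gene and more RNA per cell cannot be told apart.

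Among the ligands of the CD28 family, Cd80 rose. Its FPKM was 0.720, 0.983 and 0.895 in the control libraries, 3.46, 3.99 and 3.40 in the LPS libraries and 2.52, 2.52 and 2.10 in the LPS + G-CDs libraries. All 3 LPS libraries were above all control libraries, and the LPS + G-CDs libraries lay between them without overlap on either side. The change with LPS was 1.31 on the log2 scale (SE 0.122, adjusted p = 6.47e-05, limma), and the ratio of mean FPKM was 4.18.

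Cd86, its partner in binding CD28 and CTLA-4, was the weaker of the pair in every library. It had 8, 14 and 21 reads in the control libraries (0.117, 0.225 and 0.322 FPKM), 30, 43 and 46 reads in the LPS libraries (0.593, 0.851 and 0.864 FPKM) and 37, 36 and 43 reads in the LPS + G-CDs libraries (0.699, 0.592 and 0.836 FPKM). The LPS libraries lay above the control libraries and overlapped the LPS + G-CDs libraries. Cd86 did not pass the filter, and in the limma fit without a filter it was 0.53 higher with LPS (adjusted p = 0.0139) on the log2(FPKM + 1) scale. Summed over a group and scaled to library size, the ratio of reads was 3.52 for LPS over control, with an exact 95% interval of 2.46 to 5.11 that covers counting error only.

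The ratio of Cd86 to Cd80 FPKM was 0.250 ± 0.101 in control, 0.213 ± 0.0414 with LPS and 0.304 ± 0.0852 with LPS + G-CDs (SD over 3 libraries each). The log2 difference of this ratio was -0.17 for LPS against control (exact two-sided permutation p = 0.7) and 0.50 for LPS + G-CDs against LPS (exact p = 0.2), where 0.1 is the smallest p that 3 against 3 libraries can give. The groups overlapped in both, without control replicate 3 the first difference was 0.13, and without LPS + G-CDs replicate 3 the second was 0.28.

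Icosl, the ligand of ICOS, and Cd83 had the largest rises among the 6 tested genes on the log2(FPKM + 1) scale. Icosl went from 1.64, 2.07 and 1.93 FPKM in control to 17.1, 16.9 and 16.4 FPKM in LPS libraries, and stood at 14.4, 13.8 and 12.5 FPKM in LPS + G-CDs libraries. Its change with LPS was 2.63 (SE 0.107, adjusted p = 3.23e-07, limma), a ratio of means of 8.93, and the 3 groups did not overlap. Cd83 went from 4.0, 5.64 and 5.66 FPKM in control to 57.2, 59.1 and 54.5 FPKM with LPS, and stood at 35.1, 37.8 and 44.4 FPKM with LPS + G-CDs. With a change of 3.26 (SE 0.147, adjusted p = 6.5e-07, limma) and a ratio of means of 11.2, Cd83 became the most highly expressed of the 9 genes, and its groups were again separate.

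The PD-1 ligands differed from each other in level. Cd274 read 0.604, 0.746 and 0.388 FPKM in control, 4.85, 5.40 and 4.46 FPKM in LPS and 7.94, 6.47 and 5.23 FPKM in LPS + G-CDs libraries. It rose by 1.91 with LPS (SE 0.160, adjusted p = 3.05e-05, limma), a ratio of means of 8.47. Every treated library was above every control library, while the highest LPS library overlapped the lowest LPS + G-CDs library. Of the 50-base words of the longest Cd274 transcript, 12.4% occur in transcripts of other genes, and 511 of its exonic bases overlap a gene on the opposite strand, AC119228.1, so that part of its reads is uncertain if counting ignored strand.

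Pdcd1lg2 was barely detected. It had 0 reads in each control library, 1, 2 and 0 reads in the LPS libraries and 0, 0 and 2 reads in the LPS + G-CDs libraries. These counts, 0, 3 and 2 per group, are at or under a floor of 3 reads, which corresponds to 0.0972 to 0.132 FPKM in a single library, so no fold was formed and no ratio of Cd274 to Pdcd1lg2 was taken. A difference in Pdcd1lg2 was not detectable at this depth.

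Slamf7 was also near the limit, but its reads were not spread evenly. It had 2, 0 and 0 reads in the control libraries, 7, 10 and 6 reads in the LPS libraries and 0, 0 and 0 reads in the LPS + G-CDs libraries. Each LPS library was above every other library. Scaled to library size, LPS over control had a ratio of 14.6 (exact 95% interval 3.61 to 128, counting error only, from 23 and 2 reads). LPS was at least 8.2-fold higher than LPS + G-CDs, taking a floor of 3 reads over the latter group.

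In the limma fit without a filter, Slamf7 had an adjusted p of 0.00583 for LPS against control and 0.0789 for LPS + G-CDs against LPS, where the unadjusted p was 0.000227. Exons of Slamf7 share 423 bases with Gm37787 on the opposite strand, a gene with 0 reads in every library.

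Of the CD47 and SIRPα pair, the ligand gene rose and the receptor gene fell with LPS. Cd47 had 10.3, 12.9 and 12.7 FPKM in control, 24.1, 24.8 and 23.2 FPKM in LPS and 23.4, 25.3 and 31.7 FPKM in LPS + G-CDs libraries, so that control was apart from both treated groups, which overlapped. The change with LPS was 0.96 (SE 0.141, adjusted p = 0.000964, limma), a ratio of means of 2.01. Sirpa had 32.8, 36.1 and 33.8 FPKM in control, 10.6, 9.94 and 12.5 FPKM in LPS and 11.4, 10.2 and 10.3 FPKM in LPS + G-CDs libraries. Sirpa fell by 1.56 on the log2 scale (SE 0.117, adjusted p = 1.51e-05, limma) and was 3.11-fold lower by the ratio of means, with control above every treated library.

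The ratio of Cd47 to Sirpa FPKM put both changes into a single value per library. It was 0.315, 0.356 and 0.377 in control, 2.28, 2.50 and 1.86 in LPS and 2.04, 2.48 and 3.09 in LPS + G-CDs libraries. Sirpa transcripts thus outnumbered Cd47 transcripts per length in every control library, and the reverse held in every treated library. The log2 difference was 2.65 for LPS against control (exact two-sided permutation p = 0.1, the smallest possible) and 0.19 for LPS + G-CDs against LPS (exact p = 0.5, groups overlapping). The latter was 0.037 when LPS + G-CDs replicate 3 was left out, 0.070 without LPS replicate 3 and 0.34 without LPS + G-CDs replicate 1.

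**Figure D2:**
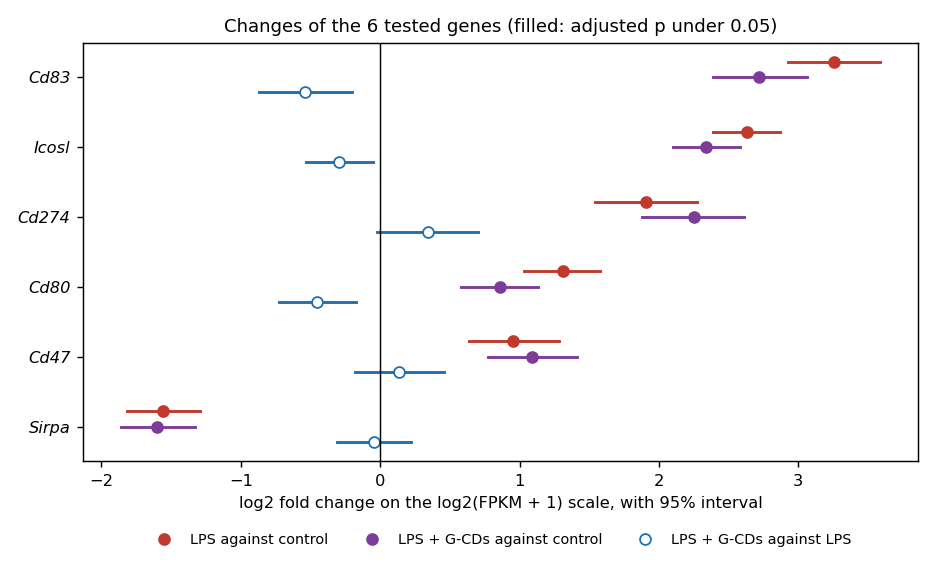
Log2 fold change of log2(FPKM + 1) with its 95% interval for the 6 tested ligand genes in each comparison, from limma. With LPS against control, 5 intervals lie above 0 and that of Sirpa lies below. With LPS + G-CDs against LPS the estimates run from -0.54 (Cd83) to 0.34 (Cd274).

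The second comparison asks what adding G-CDs to LPS did to the same genes. No tested ligand gene was called at an adjusted p under 0.05 (0 of 6 in limma, and 0 of 6 in voom on the recovered reads), against a background of 0.492% of all tested genes, or 57 genes. That background count was 11 with LPS + G-CDs replicate 2 left out and 256 with LPS + G-CDs replicate 1 left out. At an unadjusted p under 0.05 there were 3 of 6, against 15.2% of all tested genes. In those 3, Cd83, Cd80 and Icosl, every LPS + G-CDs library was below every LPS library, which held for 15.0% of all tested genes (27.9% were apart in either direction). Both comparisons use the same LPS libraries.

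Cd83 differed by -0.54 on the log2 scale with G-CDs (95% interval -0.87 to -0.20, unadjusted p = 0.00549, adjusted p = 0.205, limma), a ratio of mean FPKM of 0.687. Cd80 differed by -0.45 (interval -0.73 to -0.17, unadjusted p = 0.00523, adjusted p = 0.203), a ratio of 0.658. For Icosl the difference was -0.29 (interval -0.53 to -0.050, unadjusted p = 0.0232, adjusted p = 0.298), a ratio of 0.807. All 3 had the same sign in 3 of 3 libraries and missed the threshold after adjustment over all genes. Removing the trend with gene length from each library brought Cd83 to -0.69 with an adjusted p of 0.0394, and this was the only setting among those tried in which a tested ligand gene passed.

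The other tested genes had overlapping groups. Cd274 was 0.34 higher with G-CDs (interval -0.022 to 0.70, adjusted p = 0.326, limma), a ratio of means of 1.33, and 0.21 higher without LPS + G-CDs replicate 1. Cd47 differed by 0.14 (interval -0.18 to 0.46, adjusted p = 0.559) and by -0.026 under TPM scaling. Without LPS + G-CDs replicate 3 the Cd47 difference was 0.014, and without LPS + G-CDs replicate 1 it was 0.23. Sirpa differed by -0.043 (interval -0.31 to 0.22, adjusted p = 0.833), and by 0.0445 without LPS replicate 3. These intervals do not show that the genes were the same in both groups. Cd86, in the fit without a filter, differed by -0.049 (adjusted p = 0.869).

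**Figure D3:**
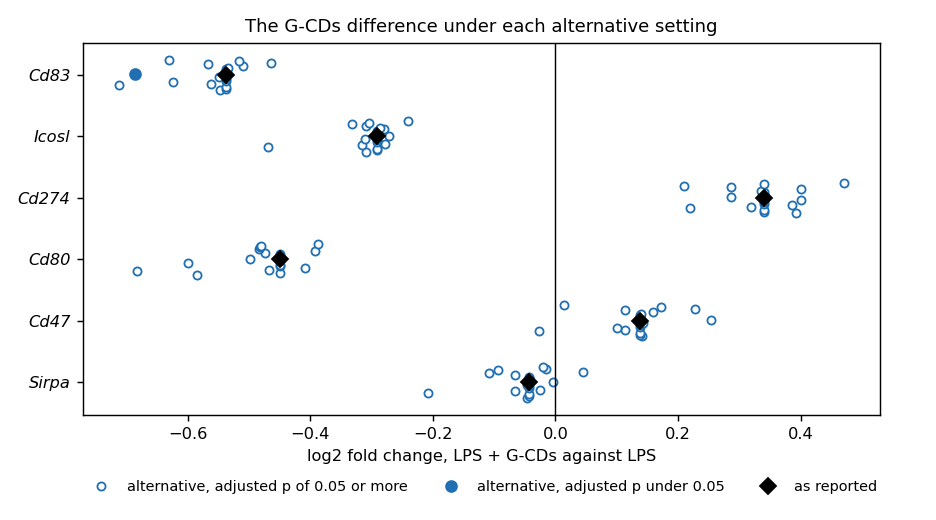
Log2 fold change of LPS + G-CDs against LPS for the 6 tested ligand genes under the processing used and under each alternative. Cd83, Cd80 and Icosl stay below 0 and Cd274 above 0 under every setting, Cd47 reaches -0.026 and Sirpa 0.0445 at their sign changes, and Cd83 with the gene-length trend removed is at -0.69.

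Relative to control, the LPS + G-CDs cells had the same 5 genes higher and Sirpa lower (6 of 6 called, against 25.3% of all tested genes with 12.8% higher and 12.4% lower, and 6 of 6 without overlap, against 34.3%). Here too Cd80 and Cd274 passed the filter through the LPS-treated groups, so these counts are a description. The changes were 2.72 for Cd83 (adjusted p = 2.18e-06, limma), 2.34 for Icosl (6.62e-07), 2.25 for Cd274 (1.31e-05), 1.09 for Cd47 (0.000537), 0.86 for Cd80 (0.000966) and -1.60 for Sirpa (1.55e-05). As a description, the LPS + G-CDs libraries kept part or all of the rise or fall seen between control and LPS means. That share was 55.0% ± 8.93 for Cd80, 65.6% ± 9.28 for Cd83 and 78.3% ± 6.32 for Icosl (SD over 3 LPS + G-CDs libraries). It was 102% ± 3.07 for Sirpa, 123% ± 36.2 for Cd47 and 138% ± 31.4 for Cd274. Shares of Cd80, Icosl and Cd83 were under 100% in every library, and those of Cd274 were over 100%. Each share takes the LPS mean as fixed, and the Cd274 libraries of the LPS and LPS + G-CDs groups overlapped. None of these genes was called between those groups. No share was formed for Cd86, whose LPS and LPS + G-CDs libraries also overlapped.

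Genes of the same pathways were taken from fixed lists. Of 14 other B7 family, galectin and nectin genes, 6 were tested, 2 rose and 3 fell with LPS (median log2 change -0.19, against 0.017 for all tested genes, of which 31.3% were called). Lgals9, the galectin that binds TIM-3, rose by 3.28 (6.64 to 72.1 FPKM, adjusted p = 1.13e-06, limma), while the B7 family genes Cd276 (12.2 to 2.03 FPKM, -2.13, adjusted p = 5.91e-06) and Vsir (14.4 to 3.64 FPKM, -1.73, adjusted p = 1.71e-05) fell. With G-CDs, 0 of the 6 passed the test (limma, with adjusted p from 0.298 to 0.977, 1 at an unadjusted p under 0.05, against 15.2% of all tested genes, and 0 in voom).

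Of 10 costimulatory genes of the TNF and TNF receptor families, 3 were tested and 2 rose with LPS (median 1.67). Of all tested genes, 15.8% were called higher, which is the background for this list and for the SLAM and CD47 lists that follow, but Cd40 was under 1 FPKM in every control library and passed the filter through the treated groups alone. Cd40, the receptor for the T cell signal CD40L, went from 0.431 ± 0.103 to 48.1 ± 3.04 FPKM (SD, n = 3), a change of 5.10 (adjusted p = 2.06e-07, limma), and stood at 40.3 ± 11.7 FPKM with G-CDs (-0.29 against LPS, adjusted p = 0.404). Tnfsf9, the 4-1BB ligand, rose by 1.67 (adjusted p = 0.0108). Of 11 genes of the SLAM family (without Slamf7) and its adaptors Sh2d1a, Sh2d1b1 and Sh2d1b2, 2 were tested and 1 rose. It was Ly9 (16.8 to 30.0 FPKM, 0.82, adjusted p = 0.00428, limma). Of 10 further genes of the CD47 and SIRP axis, 6 were tested and 1 rose, which was Fyb (2.68, adjusted p = 5.06e-06), encoding an adaptor protein. With G-CDs, limma called 0 of the tested genes of these 3 lists after adjustment and voom called 0, and 0, 0 and 1 of them were at an unadjusted p under 0.05, against 15.2% of all tested genes.

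Inhibitory receptors that the macrophages themselves can carry formed a list of 14 together with Lilr4b, a relative of Lilrb4a that is not an inhibitory receptor. Of these, 8 were tested, 5 rose and 2 fell with LPS (median 1.04), against 15.8% of all tested genes called higher and 15.6% lower. Pdcd1, which encodes PD-1, the receptor for the Cd274 and Pdcd1lg2 products, went from 8.23 ± 0.715 to 64.8 ± 4.37 FPKM with LPS (2.84, adjusted p = 7.08e-07, limma) and was at 86.7 ± 10.5 FPKM with G-CDs (0.41 against LPS, adjusted p = 0.255). Lilr4b (5.15) and Lilrb4a (4.52) had larger changes, and reads can be shared between these near-identical genes. Cd300a, an inhibitory receptor of myeloid cells, fell from 6.34 ± 0.478 to 3.85 ± 0.486 FPKM with LPS (-0.60, adjusted p = 0.00697) and was 7.69 ± 0.963 FPKM with G-CDs. Its rise of 0.84 against LPS (adjusted p = 0.0322) was the only call with G-CDs in this list (1 of 8, against 0.492% of all tested genes), and it held in 10 of 20 alternatives. The call was lost on leaving out LPS replicate 1 (adjusted p = 0.211), 2 (0.207) or 3 (0.083), LPS + G-CDs replicate 2 (0.178) or 3 (0.0908), or control replicate 2 (0.0714) or 3 (0.0566), and with TPM scaling (0.103), no filter (0.0665) or the 6 libraries alone (0.0889), with the change between 0.75 and 0.99 throughout. With G-CDs, 5 of the 8 tested genes of this list were at an unadjusted p under 0.05, against 15.2% of all tested genes, and voom called 1.

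Of 15 transcriptional and post-translational regulators of these ligands, 13 were tested and 8 rose with LPS (median 0.48), against 15.8% of all tested genes called higher, with 0 called with G-CDs in limma or voom (adjusted p from 0.18 to 0.932, and 5 at an unadjusted p under 0.05, against 15.2% of all tested genes). Nfkb1, a subunit of NF-κB, rose by 2.57 (adjusted p = 6.27e-06, limma), Irf8 by 2.0 (adjusted p = 2.36e-06) and the kinase gene Jak2 by 1.69 (adjusted p = 0.000399). Of 12 T cell markers and T cell receptors for these ligands, Lck was the only 1 tested, and it went from 1.10 to 3.54 FPKM with LPS (1.12, adjusted p = 0.00103) and was at 5.69 FPKM with G-CDs, without overlap with the LPS libraries (0.54 against LPS, adjusted p = 0.249), while Cd3g, Cd8a and Cd226 were listed at 0 in every library.

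**Figure D4:**
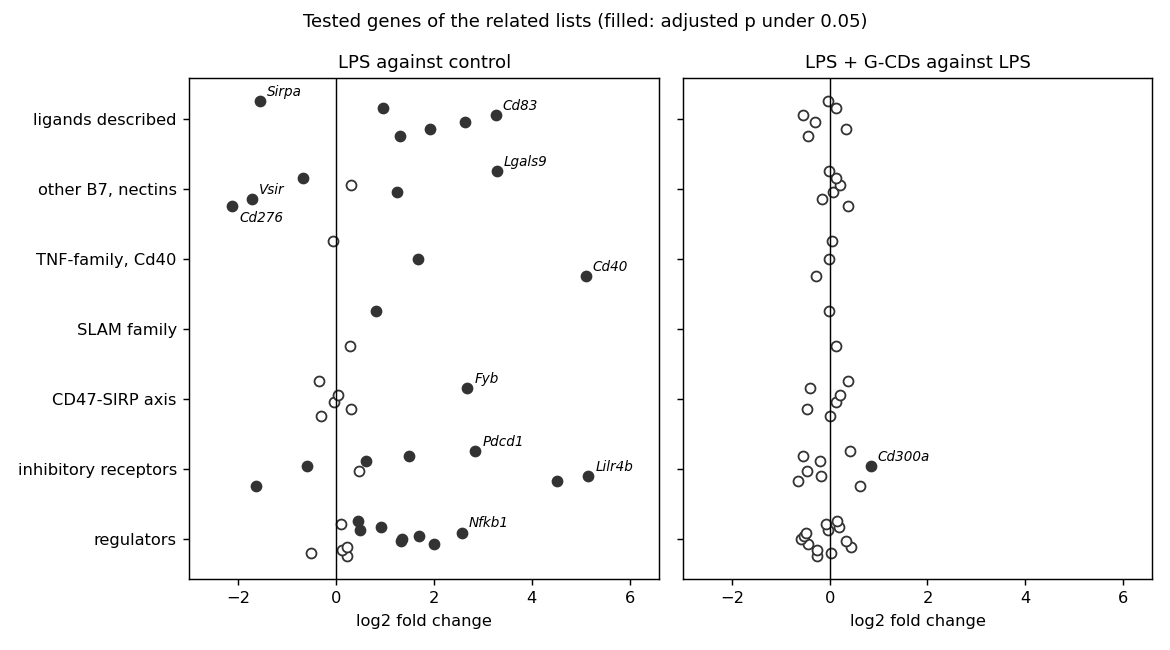
Log2 fold change of log2(FPKM + 1) of the 6 tested ligand genes and of the tested genes of the 6 related lists, 1 point per gene, in LPS against control (left) and LPS + G-CDs against LPS (right), filled where the adjusted p was under 0.05. Filled points lie on both sides of 0 on the left, from -2.13 (Cd276) to 5.15 (Lilr4b), and the only filled point on the right is Cd300a at 0.84.

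Over the 9 libraries, the genes whose log2(FPKM + 1) ran most like Cd80 were Irak3 (Pearson's r = 0.995) and Lix1 (0.993), and those most like Icosl were C3ar1 (0.999) and Tnfrsf1b (0.999). For Cd83 they were Hcar2 (0.998) and Tnip1 (0.997), for Cd274 Rsad2 (0.994) and Stx11 (0.994), for Cd47 Rars (0.996) and Evi2a (0.995), and for Sirpa Ccnf (0.995) and Alox5 (0.995). The 9 libraries share the structure of the 3 groups, which can raise each r by itself, to an extent that was not measured. Stx11 and Cd274 transcripts hold 50-base words in common, whose part in their r was not tested. Because these genes were picked by r over the same libraries, alike group means follow from the choice. Like Cd274, Rsad2 had a higher mean in the LPS + G-CDs group (43.5 FPKM) than in the LPS group (29.4 FPKM). Irak3, like Cd80, had a lower one (9.09 against 16.4 FPKM). Alox5 did not run with Sirpa here, at 7.95 FPKM with LPS + G-CDs and 7.77 FPKM with LPS, where the Sirpa mean was lower with LPS + G-CDs.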

How the data were processed

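RAW264.7 libraries were grouped by the labels into control, LPS and LPS + G-CDs (n = 3 each). mRNA was captured on poly-T beads and sequenced on an Illumina instrument, and the authors deposited an FPKM value per gene and library, with gene lengths. GRCm38 (mm10) is named in the submitters' processing notes, and the aligner, the counting tool and the use of strand are not given in the sources used here. All value columns were mapped to samples, leaving 0 unmapped.

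FPKM times gene length gave whole reads, to within 0.05 reads, in every library, and these reads served for depth, the floor of 3 reads and voom. Genes that reached 1 FPKM in 3 or more libraries (11585 genes) were tested on log2(FPKM + 1) with limma 3.58.1 in R 4.3.3 (1 model of 9 libraries, eBayes with trend, two-sided, Benjamini-Hochberg, threshold 0.05). Ratios between genes were compared by exact permutation tests. Tables were made with Python 3.11.15 and pandas 2.3.3. The test across genes was also tested on simulated data with known changes. Symbols that a spreadsheet had changed to dates were restored by gene ID (27 symbols), and coordinates equaled those of GENCODE M21 for 53462 of 54409 shared genes and 8 of the 9 ligand genes, Pdcd1lg2 differing.

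The 9 genes and all gene lists were chosen with earlier results of these data known. Named from each list were genes past the threshold with G-CDs and the 3 largest changes with LPS past it without overlap, and for each tested ligand gene the 2 genes of highest Pearson's r. Cell type and response lists were given as counts, with values for Nos2 and Lck.

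The groups share replicate numbers whose meaning the sources do not give. The correlation of deviations from the group means, for same-numbered LPS and control libraries, was 0.103, 0.137 and 0.113, above the limit of 0.1, while for LPS + G-CDs and LPS it was 0.095, 0.0801 and 0.143, and for LPS + G-CDs and control 0.28, 0.0575 and 0.653, with differently numbered libraries between -0.671 and 0.504. Alternatives were a pseudocount of 0.1, no filter and a stricter one (FPKM of 5), TPM, median-of-ratios and quantile scaling, 6 libraries alone, eBayes without trend, voom, a replicate block, removal of the gene-length trend and each library left out.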

Additional observations from a re-analysis of the deposited data

How the results depend on the processing

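Of 505 values recomputed under alternatives, 487 kept their direction and side of the threshold or, for untested values and counts, stayed within 1 SD or 1.5 times, and 1 of these changed sign (the Cd86 to Cd80 ratio below). With LPS against control and with LPS + G-CDs against control, 6 of 6 ligand genes were called under the alternatives that kept all of them, and the stricter filter removed Cd80. With LPS + G-CDs against LPS, 0 were called in every setting except after removal of the gene-length trend, which called 1 (Cd83, -0.69, adjusted p = 0.0394, limma). Cd47 turned to -0.0263 under TPM scaling (adjusted p = 0.911), where the median of all tested genes was at -0.14, and Sirpa turned to 0.0445 without LPS replicate 3 (adjusted p = 0.865), the highest of its values with a library left out, of which -0.108 was the lowest. The log2 difference in the Cd86 to Cd80 ratio for LPS against control moved from -0.17 to -0.77 when 1 was added to both FPKM values. With a library left out it ran from -0.45 (without control replicate 1) to 0.13 (without control replicate 3), and it was -0.026 without LPS replicate 1.

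The background counts moved more. The 57 genes called for LPS + G-CDs against LPS became 25 with a pseudocount of 0.1, 27 with TPM, 25 with the 6 libraries alone and 87 after removal of the gene-length trend, and ran from 11 (without LPS + G-CDs replicate 2) to 256 (without LPS + G-CDs replicate 1) when a library was left out. The 2927 genes called for LPS + G-CDs against control became 1789 with the 6 libraries alone and ran from 1914 to 3245 with a library left out, the lowest without LPS + G-CDs replicate 2. The cause was not tested. TPM scaling moved the median of all genes to -0.23 for LPS against control and changed the split of calls from 1827 higher and 1803 lower to 1003 and 3059, with the ligand genes still 5 higher and 1 lower. For LPS + G-CDs against control the split went from 1488 and 1439 to 761 and 3218. With the replicate block, the pairing changed no call of a ligand gene (6, 0 and 6 called), with 4104, 53 and 3347 of all genes called in the 3 comparisons. Depth limits Pdcd1lg2, Slamf7 and Cd86, with at most 3, 23 and 119 reads per group.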
